A study of Gallus gallus with 18 samples.

Results

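These data describe 24 genes of the chicken retinal pigment epithelium (RPE) whose level 6 h after removal of the retina was at least 1 log2 above that of developing RPE at E5 and at E4, and differed by no more than 0.5 log2 between RPE given FGF2 and RPE without it. The 24 were chosen from 18336 genes on the means of the 6 groups, with L = log2(group mean + 0.5): L was at least 1 higher in 6hPR than in developing RPE at both stages, L of 6hPR + FGF2 lay within 0.5 of L of 6hPR at both stages, L of E5 developing RPE was above L of E4 developing RPE minus 0.8, and the highest of the 6 group means was at least 100. A log2 distance of 0.5 is a 1.41-fold ratio. The groups, all of RPE from Gallus gallus embryos with no genetic change named, were RPE collected 6 h after retinectomy with an FGF2 bead on heparin in the eye cup (6hPR + FGF2), RPE collected 6 h after retinectomy alone (6hPR) and RPE of unoperated embryos (developing), each at embryonic day 5 (E5, Hamburger-Hamilton stage 26) and embryonic day 4 (E4, stage 24). Each group had 3 libraries of polyA RNA and each library pooled 3 RPE sheets, so that n counts pools and p-values measure the spread between pools. No source used here names a bead without FGF2 in 6hPR RPE, so the bead and FGF2 cannot be told apart. In bulk RNA, a change in the share of a cell type and a change in RNA per cell cannot be told apart.

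RPE is the pigmented layer behind the neural retina. In the chick embryo it can be turned into neural retina after retinectomy when FGF2 is supplied at the earlier stage, and this ability is lost at the later stage. Wounding of an epithelium switches on immediate early genes such as FOS within minutes to hours, and cytokines of the interleukin-6 family signal in many injured tissues through JAK kinases to STAT3, whose targets include feedback inhibitors of the SOCS family. FGF2 acts through receptor tyrosine kinases and the MAPK cascade to transcription factors of the ETS family and to feedback inhibitors of the pathway.

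Each library held 50.7 to 73 M reads assigned to genes (M, 1e6 reads), and the lowest value of any of the 24 genes rested on 21 reads. All 15 RPE markers were detected and summed to at least 481219 normalized counts in each library. Neural retina markers (19 detected, none at 0 throughout) summed to 16377 to 19494 normalized counts in E5 6hPR + FGF2, 20322 to 22269 in E5 6hPR and 4547 to 37083 in E5 developing RPE. They summed to 21119 to 24272 in E4 6hPR + FGF2, 11536 to 21329 in E4 6hPR and 5570.1 to 7041 in E4 developing RPE. The highest of these sums was that of E5 developing replicate 2, which held the highest value of 15 of the 19 markers. Leukocyte markers (16 detected) summed to 12371 to 16646 in E5 6hPR + FGF2, 13644 to 14741 in E5 6hPR and 8385 to 11535 in E5 developing RPE. Their sums were 6571 to 11299 in E4 6hPR + FGF2, 7861 to 8670.1 in E4 6hPR and 6707 to 7280.2 in E4 developing RPE. The part of other cell types in the levels of the 24 genes was not tested.

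E4 6hPR replicate 2 was the highest of its group for 18 of the 24 genes, against 42.6% of all genes with a highest group mean of at least 100. The 24 genes lay a median of 0.52 log2 above the mean of the other libraries of its group, whereas all genes of that level lay at 0.02. Its neural retina markers summed to 21329 normalized counts, against 11536 and 12526 in replicates 1 and 3, and its erythrocyte markers to 1262479, the highest sum of the 18 libraries. That neural retina sum lay within the range of E4 6hPR + FGF2, 21119 to 24272. Of the 19 neural retina markers, 1 peaked in E4 6hPR replicate 2 among all 18 libraries, as did 5 of the 10 erythrocyte markers. The RPE markers of this library summed to 822663, against 619027 and 528109 in replicates 1 and 3. No other E4 library had so large an RPE sum. A set of 660 genes was called by limma and at least 1 log2 higher in E5 6hPR + FGF2 than in E5 6hPR RPE. Their median log2 distance from the E4 developing mean was 0.26 in this library, 0.42 and 0.29 in E4 6hPR replicates 1 and 3, and 0.76 to 0.87 in the 3 E4 6hPR + FGF2 libraries. For the 338 genes at least 1 log2 lower there, it was 0.30 in this library and 0.18 and 0.13 in replicates 1 and 3. In the 3 E4 6hPR + FGF2 libraries it was -0.55 to -0.32. HINTW, a gene of the female W chromosome, had 37762 normalized counts in this library and 74678 and 76178 in replicates 1 and 3. It had 0 in E5 6hPR replicate 3 and 60.4 in E4 6hPR + FGF2 replicate 3, so the pools were not alike in embryo sex. The part of sex in the levels of the 24 genes was not tested. Why E4 6hPR replicate 2 stood apart was not tested. Results that rest on E4 6hPR replicate 2 are given with and without it further on. E5 6hPR replicate 3 was the highest of its group for 14 of the 24 genes (37.0% of all genes), at a median of 0.13 log2 above the others. It held the highest value of 9 of 11 yolk sac or liver markers, and without it FOS, NR4A1 and AKR1B10 left the rule. E4 6hPR + FGF2 replicate 1 was the highest of its group for 13 (37.2% of all genes), at a median of 0.13.

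Within 278 genes that were at least 1 log2 higher in 6hPR RPE at both stages and reached a mean of 100 or more, the FGF2 step, meaning 6hPR + FGF2 minus 6hPR, lay within 0.5 of 0 in 58 at E5, in 84 at E4 and in 27 at both stages. The limit on developing RPE removed 3 of the 27. A further 95 genes lay above 0.5 and 62 below -0.5 at both stages, so the 24 genes sat between a larger group that was higher with FGF2 and another that was lower. Such a small step was not rare in the table, since 8139 of 12839 genes with a mean of at least 100 lay within 0.5 at both stages. All values of the injury difference (6hPR minus developing) and of the FGF2 step below are those that chose the genes, so they are given as descriptions with no test.

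**Figure D1:**
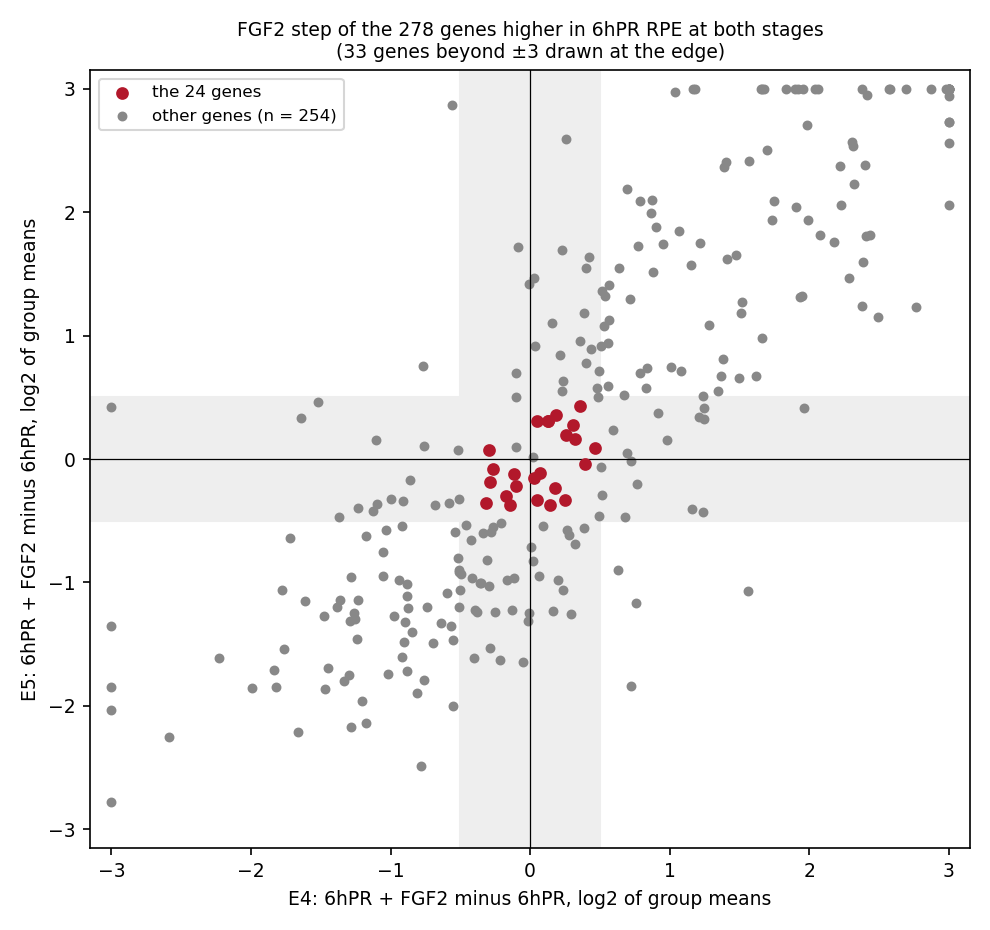
FGF2 step of the 278 genes at least 1 log2 higher in 6hPR than in developing RPE at both stages, as the difference of log2(group mean + 0.5) between 6hPR + FGF2 and 6hPR, with E4 on the horizontal and E5 on the vertical axis. Grey bands mark the limit of 0.5, red points are the 24 genes and grey points the other 254, of which 95 lie above the limit and 62 below it at both stages.

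The median injury difference of the 24 genes was 1.65 log2 at E5 (range 1.00 to 3.63) and 1.30 at E4 (1.01 to 3.38), beside 1.95 and 1.53 for all 278. Their median FGF2 step was -0.10 at E5 (-0.37 to 0.43) and 0.10 at E4 (-0.32 to 0.46). Every one of the 3 E5 6hPR libraries lay above every E5 developing library in 23 of the 24 genes, where 14.5% of all genes tested did so, and the same held at E4 in all 24, where 16.0% did so. The rule fixed this direction, and nothing is read from these counts. Libraries of 6hPR + FGF2 and 6hPR did not overlap in 8 of the 24 genes at E5, 4 higher and 4 lower with FGF2, where 48.8% of all genes did not overlap, and in 2 at E4, 1 in each direction, where 23.5% did not. Within the limit, STAT3, CISH, TSHZ1 and SLC22A18 were higher and ADAMTS8, GAD2 and 2 unnamed genes lower in each E5 6hPR + FGF2 library than in each E5 6hPR library.

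**Figure D2:**
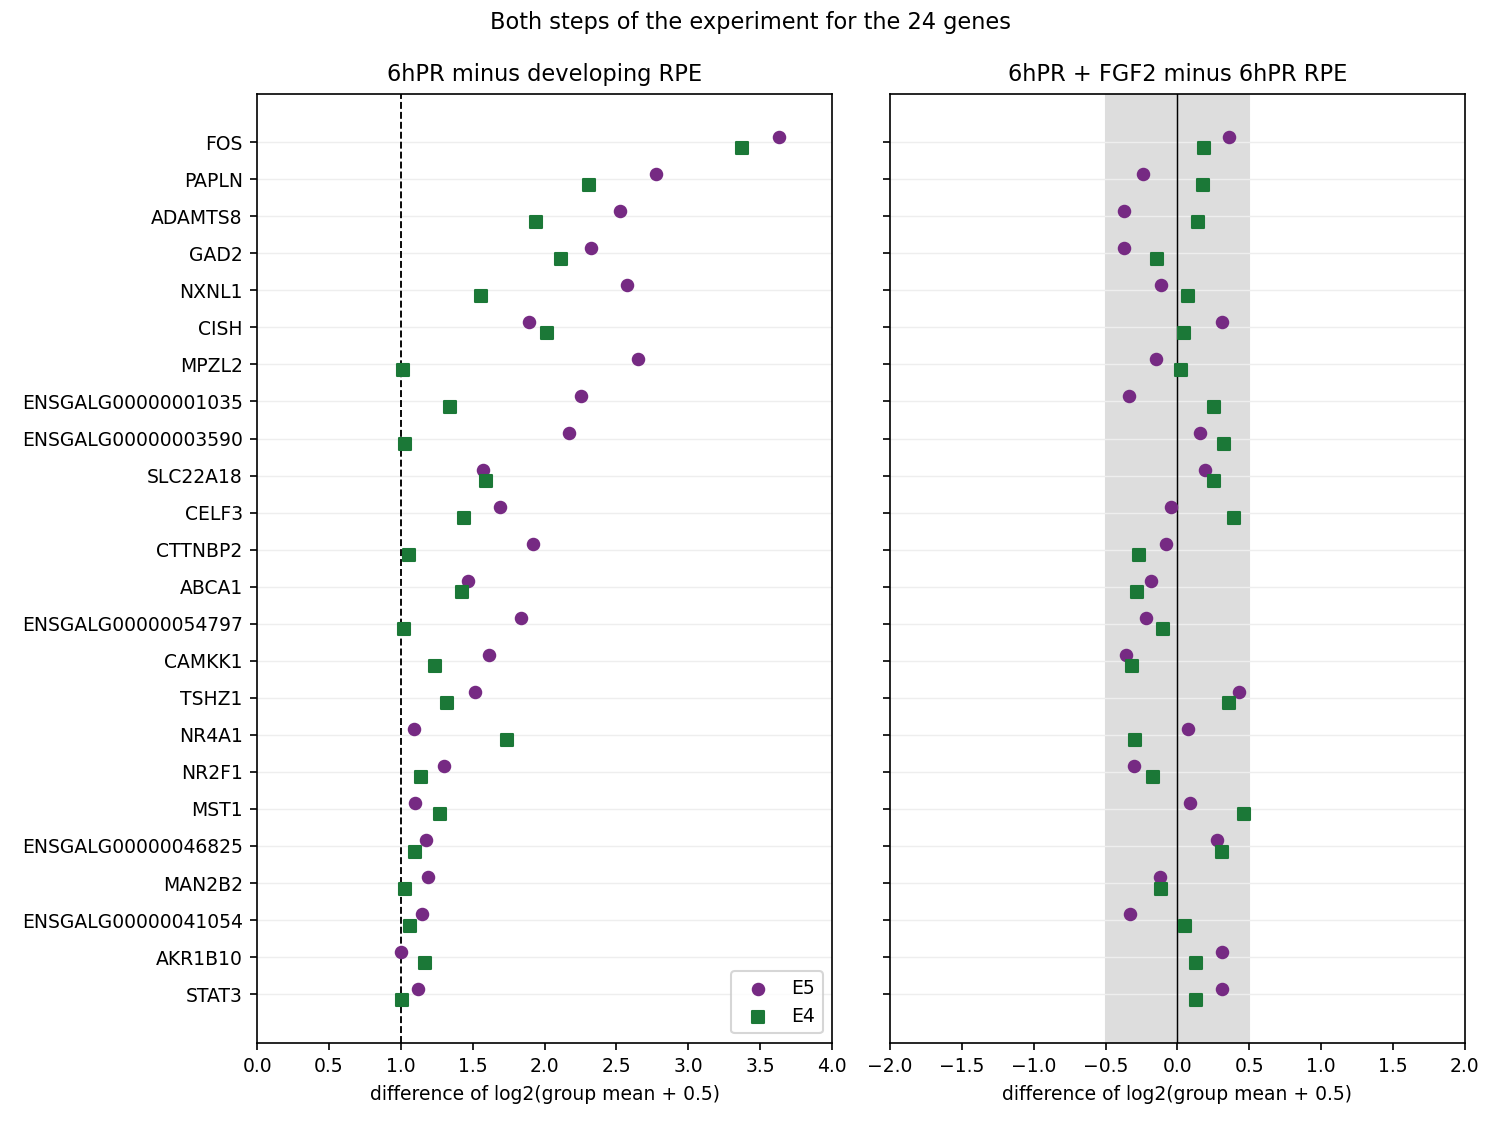
Differences of log2(group mean + 0.5) for the 24 genes, 6hPR minus developing RPE on the left and 6hPR + FGF2 minus 6hPR RPE on the right, with E5 as circles and E4 as squares. The dashed line marks the limit of 1 and the grey band the limit of 0.5; FOS has the largest injury difference, 3.63 at E5 and 3.38 at E4.

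Of the 24 genes, 4 signalling genes belonged to the lists of immediate early genes or of cytokine signalling. FOS (ENSGALG00000028037), a subunit of the AP-1 transcription factor and an immediate early gene, had 2276, 2658 and 1557 normalized counts in E5 6hPR + FGF2, 1374, 1656 and 2038 in E5 6hPR and 138, 130.0 and 139 in E5 developing RPE. At E4 it had 1814, 1635 and 1444 in 6hPR + FGF2, 874, 2849.9 and 578 in 6hPR and 138, 123 and 152 in developing RPE. The injured libraries all lay far above the developing ones, with a ratio of 6hPR to developing means of 12.4 at E5 and 10.4 at E4. The libraries with and without FGF2 overlapped at both stages, at E4 through 6hPR replicate 2 alone, since the other 2 libraries of 6hPR stood below every 6hPR + FGF2 library. NR4A1 (ENSGALG00000043727), an orphan nuclear receptor and immediate early gene, was much lower, with 231, 177 and 103 in E5 6hPR + FGF2, 145, 152 and 189 in E5 6hPR and 68.0, 55.0 and 104 in E5 developing RPE. Its E4 counts were 143, 154 and 115 in 6hPR + FGF2, 127, 298 and 81.0 in 6hPR and 52.8, 55.1 and 42.8 in developing RPE, again with the highest 6hPR value in replicate 2. At E5, 1 library of 6hPR + FGF2 and 1 of developing RPE stood at about the same level, so those groups overlapped.

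STAT3 (ENSGALG00000003267), the transcription factor activated by cytokines of the interleukin-6 family, was the most abundant of the 24 genes. It had 27567, 26480.0 and 25422 normalized counts in E5 6hPR + FGF2, 20409, 19654 and 23992 in E5 6hPR and 10366, 8734 and 10415 in E5 developing RPE, and the 3 groups did not overlap. At E4 it had 25720.0, 23514 and 18924 in 6hPR + FGF2, 17826, 28203 and 16416 in 6hPR and 10137, 10178 and 10671 in developing RPE, where the highest value of all again belonged to 6hPR replicate 2. CISH (ENSGALG00000002260), an inhibitor of cytokine signalling that in mammals is a target of STAT5, had 979, 964 and 1106 in E5 6hPR + FGF2, 749.5, 815 and 898 in E5 6hPR and 302, 165 and 195 in E5 developing RPE. At E4 its values were 1141, 889 and 783 in 6hPR + FGF2, 820.1, 1312 and 592 in 6hPR and 188, 249 and 236 in developing RPE. CISH was thus about as high after injury at E5 as at E4, and its injury difference was 1.89 log2 at E5 and 2.02 at E4. Its FGF2 step was 0.31 at E5, where the injured groups did not overlap, and 0.05 at E4, where they did.

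Relatives of these 4 genes in the same lists were tested over all genes. Of 37 other immediate early and AP-1 genes tested by limma with Benjamini-Hochberg adjustment, 11 were called higher and 2 lower in E5 6hPR than in E5 developing RPE (9.92% and 9.09% of all genes), and 15 higher and 0 lower at E4 (5.68% and 7.90%). In the FGF2 step 17 of the 37 were called higher and 4 lower at E5 (13.9% and 12.3% of all genes), and 6 higher and 2 lower at E4 (4.99% and 3.28%). The injury genes FOSL2, another AP-1 subunit, and CEBPB, a transcription factor of the acute phase response, had FGF2 steps of 1.72 and 1.55 log2 at E5 and of 0.78 and 0.40 at E4. EGR1, a zinc finger immediate early gene, had 0.84 at E5 and 0.21 at E4, while the antiproliferative BTG1 had -0.96 and -0.41. Of 63 other inflammation and cytokine genes, 32 were called higher and 5 lower in the FGF2 step at E5, and 9 higher and 0 lower at E4. They included 16 called higher and 3 lower in E5 6hPR than in E5 developing RPE, and 14 higher and 1 lower at E4. SOCS3, the feedback inhibitor of STAT3 signalling, missed the limit: its injury difference was 3.53 at E5 and 3.47 at E4, and its FGF2 step 0.58 and 0.83, neither called by limma (adjusted p = 0.35 and 0.14).

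The 6 other lists held none of the 24 genes: stress response, matrix and proteolysis, cytoskeleton with SRF and YAP targets, growth factors and receptors, glycolysis and hypoxia, and FGF and MAPK feedback. They held 2, 4, 4, 6, 2 and 3 of the 278 injury genes. The lists did not name every gene of a role. ADAMTS8, PAPLN and MST1, described below as matrix genes and a receptor ligand, are among the 24 genes and were on no list. The FGF and MAPK feedback list, the one nearest to the receptor, had 16 of 25 genes called higher and 1 lower in the FGF2 step at E5, and 14 higher and 0 lower at E4.

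Transcription factors and other signalling genes outside the lists were TSHZ1, NR2F1, CAMKK1 and MST1. TSHZ1 (ENSGALG00000013672), a zinc finger factor of the teashirt family, had 1055, 1047 and 1095 normalized counts in E5 6hPR + FGF2, 904, 678 and 798 in E5 6hPR and 302, 361 and 169 in E5 developing RPE, with no overlap among the 3 groups. At E4 its means were 629 ± 115 in 6hPR + FGF2, 491 ± 49.4 in 6hPR and 196 ± 11.2 in developing RPE (SD, n = 3 each). Its FGF2 step, 0.43 at E5 and 0.36 at E4, was among those nearest the limit. NR2F1 (ENSGALG00000027907), the orphan nuclear receptor COUP-TFI, which takes part in patterning of the mouse optic cup, averaged 2664 ± 460.1 in E5 6hPR + FGF2, 3283 ± 474 in E5 6hPR and 1336 ± 143 in E5 developing RPE. The E4 means of NR2F1 were 3227 ± 465 in 6hPR + FGF2, 3628 ± 203 in 6hPR and 1649 ± 147 in developing RPE, and its injury difference was 1.30 log2 at E5 and 1.14 at E4. CAMKK1 (ENSGALG00000001617), a kinase that activates calmodulin-dependent kinases, had 527, 550.0 and 644 in E5 6hPR + FGF2, 664, 637 and 899 in E5 6hPR and 249, 293 and 176 in E5 developing RPE. In E4 RPE its 6hPR + FGF2 libraries, at 516, 575 and 433, all lay below its 6hPR libraries, at 669, 603 and 626, and above its developing libraries, at 256, 316 and 232. MST1 (ENSGALG00000002722), in mammals the ligand of the receptor kinase RON, had 1409.7, 1420.3 and 1333 in E5 6hPR + FGF2, 1066, 1395 and 1449 in E5 6hPR and 359.6, 557 and 912 in E5 developing RPE, the last of them spread widely. Its E4 values were 1892, 1659 and 1123 in 6hPR + FGF2, 869, 1626 and 893 in 6hPR and 549, 486 and 364 in developing RPE, and its E4 FGF2 step of 0.46 was the one nearest the limit.

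Another 4 genes act in the matrix, in adhesion or at the cytoskeleton. PAPLN (ENSGALG00000009315), papilin, a secreted matrix glycoprotein, had 1756, 1966 and 1957 normalized counts in E5 6hPR + FGF2, 2876, 1948 and 1874 in E5 6hPR and 568, 268 and 141 in E5 developing RPE. At E4 it had 599, 445 and 921 in 6hPR + FGF2, 465, 968 and 305 in 6hPR and 106, 136 and 108 in developing RPE. After FOS it had the largest mean injury difference of the 24 (2.78 log2 at E5 and 2.31 at E4), and every one of its E5 groups had a higher mean than the E4 group of the same condition. ADAMTS8 (ENSGALG00000001370), a secreted metalloproteinase, had 187, 174 and 198 in E5 6hPR + FGF2, 280.3, 204 and 241 in E5 6hPR and 66.9, 32.0 and 25.6 in E5 developing RPE. Its E5 libraries were lower with FGF2 than without it and did not overlap, while its E4 libraries did (318, 165 and 181 in 6hPR + FGF2, 193, 172 and 236 in 6hPR and 28.3, 50.8 and 75.8 in developing RPE). MPZL2 (ENSGALG00000007412), an adhesion molecule of the immunoglobulin family found in epithelia, had 1300.1, 1349 and 597 in E5 6hPR + FGF2, 996, 1062 and 1550.2 in E5 6hPR and 166, 210.1 and 197 in E5 developing RPE. At E4 it stood at 542, 269 and 302 in 6hPR + FGF2, 327, 538 and 227 in 6hPR and 161, 179 and 199 in developing RPE, close above developing RPE in several injured libraries. Its injury difference was 2.65 at E5 and 1.02 at E4, the widest gap between the stages among the 24 genes. CTTNBP2 (ENSGALG00000009134), which binds the actin regulator cortactin, had 9693, 9663 and 7466 in E5 6hPR + FGF2, 9791, 8549.6 and 9991 in E5 6hPR and 2675, 2685 and 2141 in E5 developing RPE. Its E4 values were 3593, 3399.9 and 4258 in 6hPR + FGF2, 4578, 4809 and 4124 in 6hPR and 1901, 2067 and 2529.7 in developing RPE, with tight groups at both stages.

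A further 3 genes are best known from neurons or photoreceptors. GAD2 (ENSGALG00000040436), an enzyme that makes the transmitter GABA, had 2565, 2704 and 3223 normalized counts in E5 6hPR + FGF2, 3796, 3845 and 3329.7 in E5 6hPR and 814, 825 and 549.6 in E5 developing RPE. At E4 it had 2229, 2212 and 2819 in 6hPR + FGF2, 3256, 2730.1 and 2040.1 in 6hPR and 566, 518 and 771 in developing RPE. It was already measurable in developing RPE. E5 developing replicate 2, the library with the most neural retina transcripts, was the highest of its group, but barely above replicate 1 (825 against 814). NXNL1 (ENSGALG00000038506), which in mammals encodes the rod-derived cone viability factor, had 699, 658 and 560.4 in E5 6hPR + FGF2, 656, 706 and 714 in E5 6hPR and 84.7, 130.0 and 132 in E5 developing RPE. At E4 its values were 414, 344 and 299.9 in 6hPR + FGF2, 270.0, 449.9 and 285 in 6hPR and 113, 113 and 114 in developing RPE. The developing level of NXNL1 was thus alike at both stages, and its injured level was higher at E5. CELF3 (ENSGALG00000028478), a splicing regulator of the nervous system, had 183, 218 and 223 in E5 6hPR + FGF2, 224, 235 and 185 in E5 6hPR and 41.8, 112 and 44.0 in E5 developing RPE. Here E5 developing replicate 2 was again the highest of its group, as it was for most neural retina markers, and the part of neural retina transcripts in GAD2 and CELF3 was not tested.

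The named genes of metabolism and transport were ABCA1, SLC22A18, MAN2B2 and AKR1B10. ABCA1 (ENSGALG00000015433), the exporter of cellular cholesterol, had 7209, 7592 and 6121 normalized counts in E5 6hPR + FGF2, 9193, 7299.5 and 7319 in E5 6hPR and 4618, 2129.5 and 1868 in E5 developing RPE, where replicate 1 was highest. At E4 it had 1602, 2790.2 and 2569.8 in 6hPR + FGF2, 3078, 2536 and 2866 in 6hPR and 817, 1111 and 1236 in developing RPE. SLC22A18 (ENSGALG00000006454), a membrane transporter of the organic cation family, had 253, 256 and 289.9 in E5 6hPR + FGF2, 244, 227 and 228 in E5 6hPR and 73.2, 53.0 and 108 in E5 developing RPE. Its injured E4 libraries, 139, 77.5 and 68.0 with FGF2 and 79.3, 57.6 and 101 without, all lay below its injured E5 libraries, and its developing E4 libraries were at 31.3, 29.8 and 16.9. MAN2B2 (ENSGALG00000015537), an alpha-mannosidase of the lysosome, was abundant, with means of 15947 ± 1561 in E5 6hPR + FGF2, 17367 ± 1061 in E5 6hPR and 7631 ± 619.5 in E5 developing RPE, and of 12185 ± 1685 in 6hPR + FGF2, 13173 ± 1391 in 6hPR and 6469.8 ± 1321 in developing RPE at E4 (SD, n = 3 each). AKR1B10 (ENSGALG00000013072), an aldo-keto reductase that acts on aldehydes and retinal in humans, had 595, 698 and 829.9 in E5 6hPR + FGF2, 569, 522 and 619 in E5 6hPR and 511, 136 and 206 in E5 developing RPE. At E4 it had 197, 139 and 93.9 in 6hPR + FGF2, 123, 143 and 127 in 6hPR and 76.2, 70.9 and 27.4 in developing RPE. Its E5 injury difference of 1.00 was the one nearest the limit, and E5 developing replicate 1 lay just below the 6hPR libraries.

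The last 5 genes carry no symbol in the annotation, and no role is given to them. They were named after their values had been seen. ENSGALG00000041054 was the most abundant, with 2068, 2092 and 2476 normalized counts in E5 6hPR + FGF2, 2663, 2539 and 3153 in E5 6hPR and 1322, 1196 and 1263 in E5 developing RPE, and with 3480.0, 3910.0 and 4602 in 6hPR + FGF2, 3179, 4604 and 3804 in 6hPR and 1636, 1829 and 2088 in developing RPE at E4. In every condition its E5 libraries lay below its E4 libraries, a pattern shown by no other of the 24 genes. ENSGALG00000001035 averaged 629 ± 44.2 in E5 6hPR + FGF2, 793 ± 54.9 in E5 6hPR and 166 ± 7.77 in E5 developing RPE, and 523 ± 58.3 in 6hPR + FGF2, 439 ± 138 in 6hPR and 173 ± 10.4 in developing RPE at E4. ENSGALG00000003590 averaged 312 ± 98.3 in 6hPR + FGF2, 279.7 ± 29.4 in 6hPR and 61.6 ± 6.13 in developing RPE at E5 and 133 ± 72.0 in 6hPR + FGF2, 106 ± 39.5 in 6hPR and 51.7 ± 11.3 in developing RPE at E4. ENSGALG00000054797 had injury differences of 1.84 at E5 and 1.02 at E4, with a developing mean that was 120.2 ± 9.99 at E5 and 193 ± 63.1 at E4. ENSGALG00000046825 was the least abundant, at 154, 101 and 107 in E5 6hPR + FGF2, 101, 130.2 and 66.6 in E5 6hPR and 70.0, 28.0 and 33.0 in E5 developing RPE, and it was the single gene whose E5 6hPR and developing libraries overlapped.

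**Figure D3:**
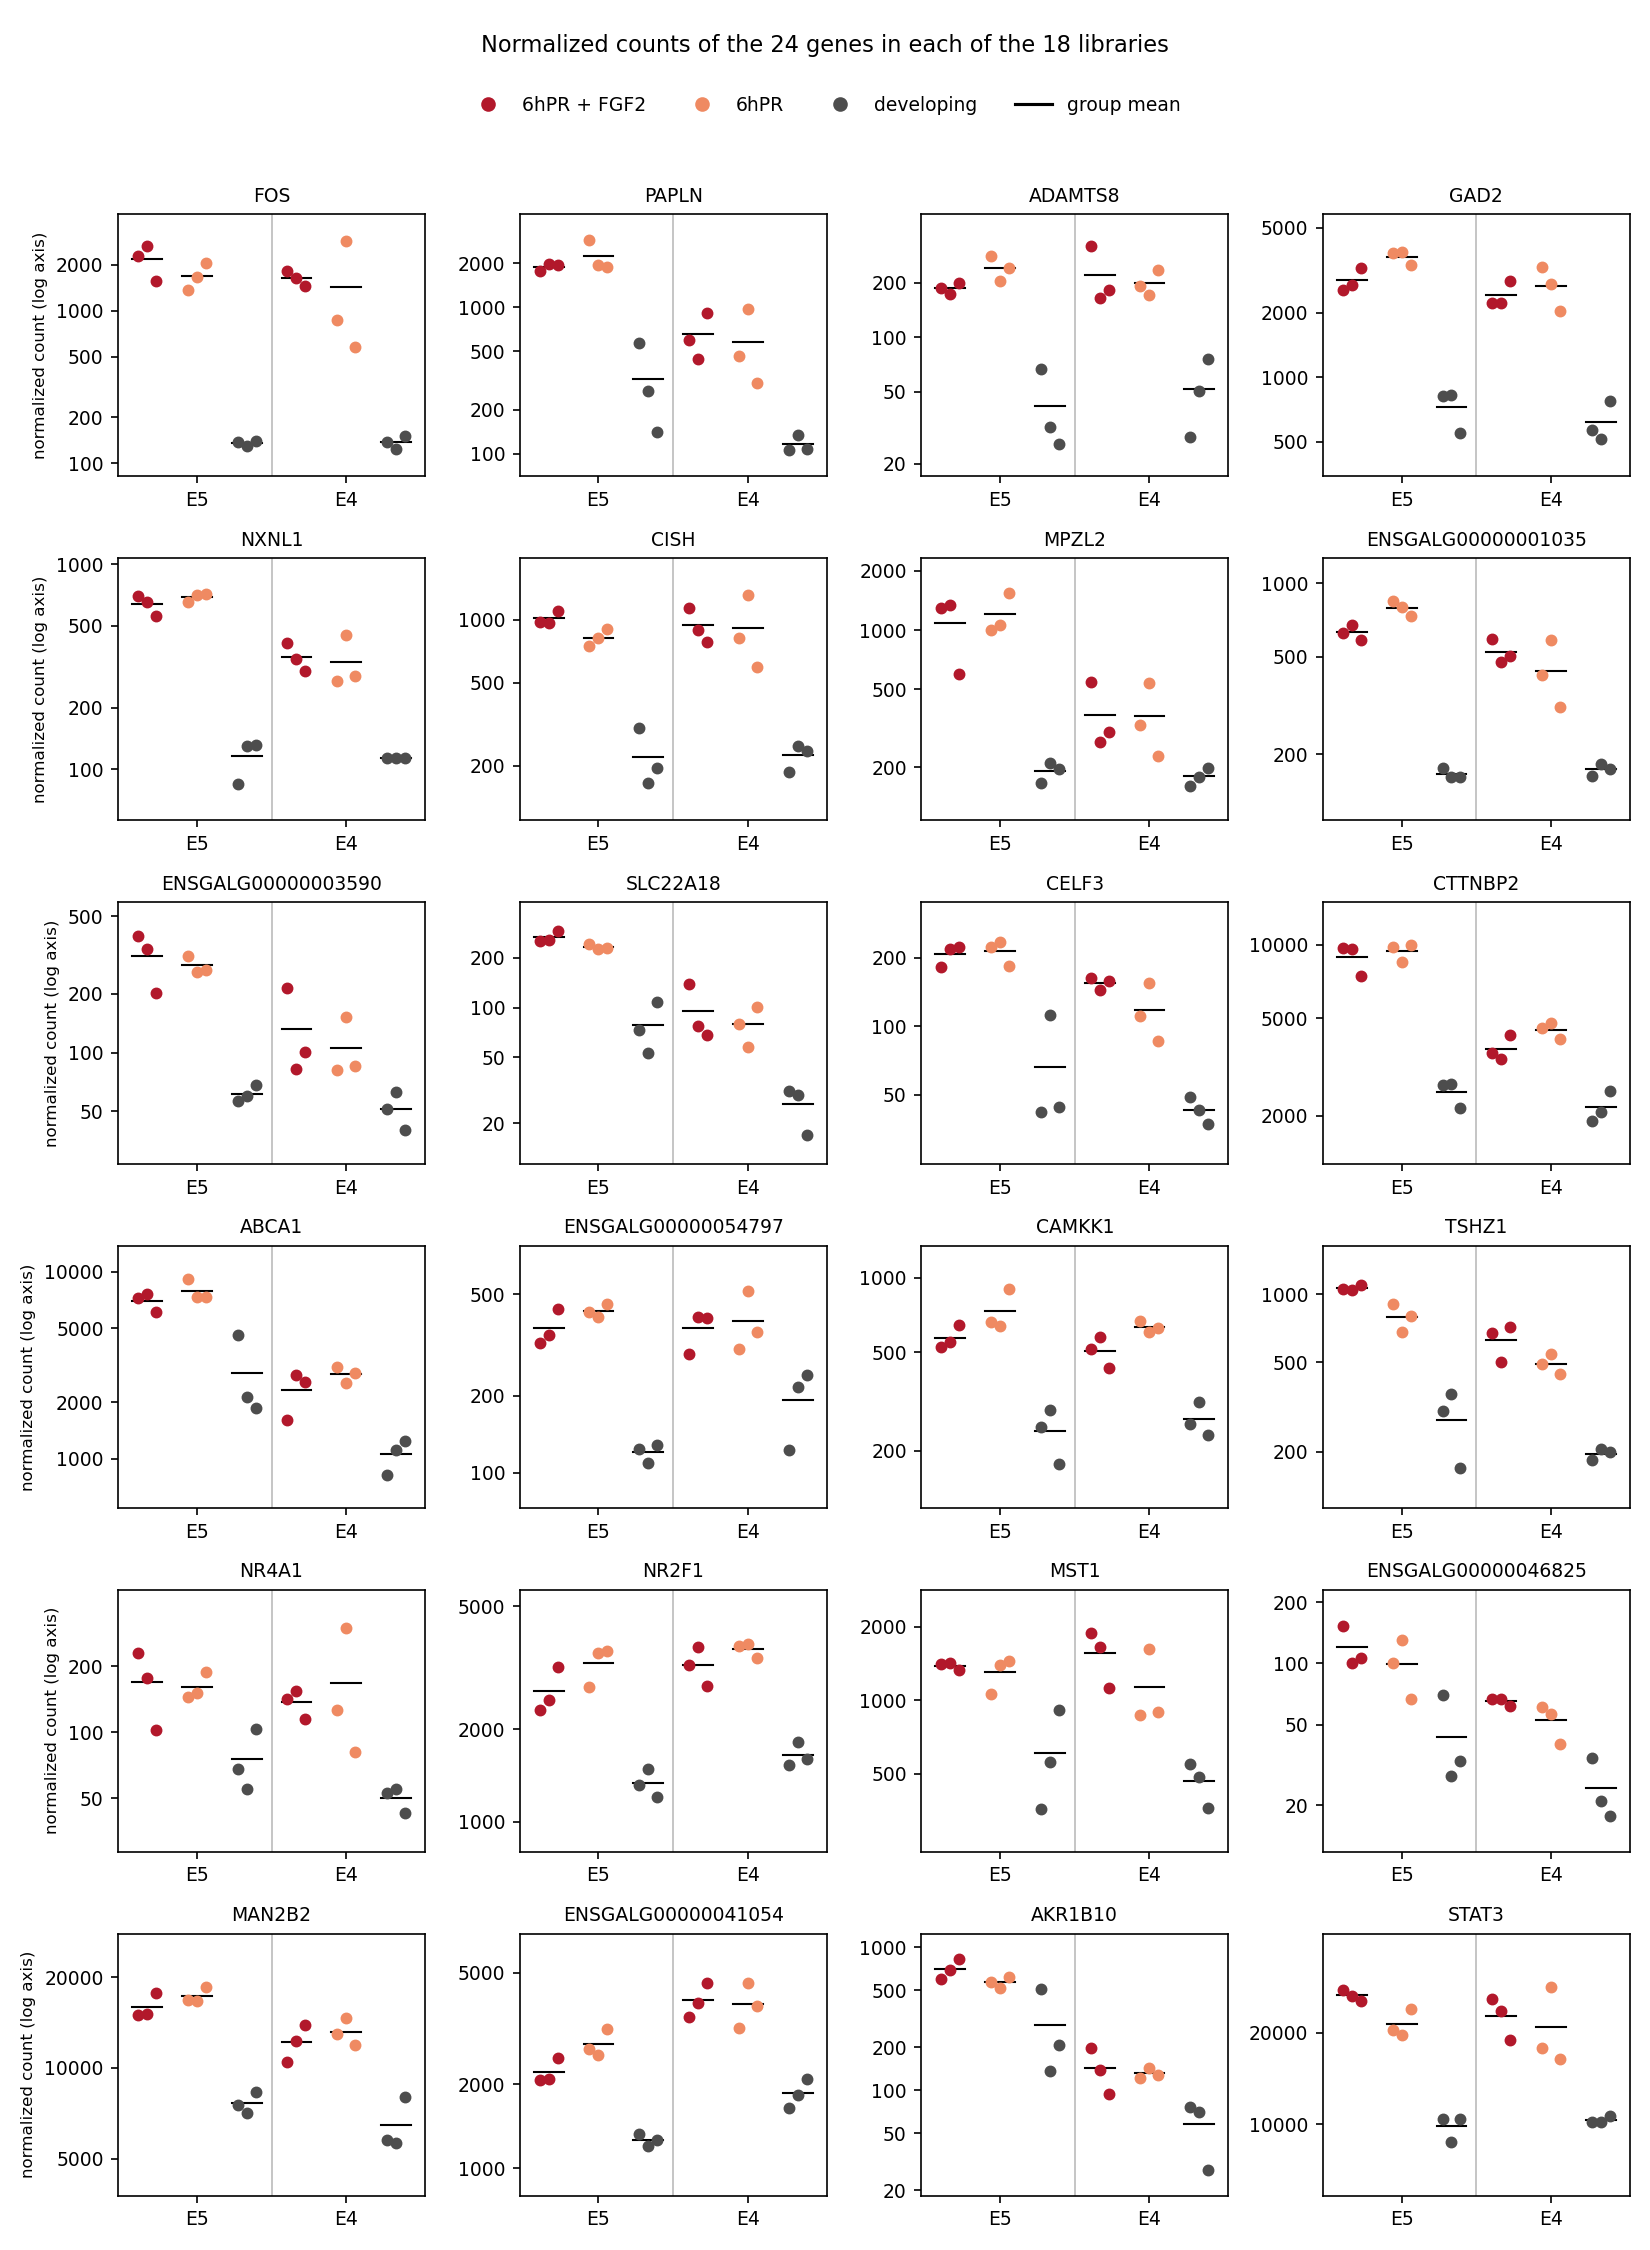
Normalized counts of each of the 24 genes in the 18 libraries on log axes, with E5 left of E4 and, within a stage, 6hPR + FGF2, 6hPR and developing RPE from left to right. Points are libraries and bars group means; in most panels both injured groups lie together above developing RPE, and in the FOS panel 1 E4 6hPR library stands at 2850 while the others stand at 874 and 578.

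Nearest to the limits, STAT3 (1.01) and MPZL2 (1.02) were just inside the injury limit at E4, and YPEL2 and FAM185A (0.97 each) just outside. At E5 AKR1B10 (1.00) and NR4A1 (1.09) were just inside, and TBX5 (0.99) and KRT17 (0.90) just outside. For the FGF2 step at E5 TSHZ1 (0.43) and ADAMTS8 (-0.37) were just inside, and AMER2 and NAB2 (0.50 each, above the limit before rounding) just outside. At E4 MST1 (0.46) and CELF3 (0.40) were just inside, with ENSGALG00000033653 (-0.51) and ENSGALG00000037457 (0.51) just outside. The developing limit separated ENSGALG00000054797 (-0.68) and ENSGALG00000041054 (-0.55) from DAW1 (-0.95) and ENSGALG00000015953 (-1.07), and the limit on the highest mean separated ENSGALG00000046825 (120.5 normalized counts) and NR4A1 (170.3) from ENSGALG00000050752 (79.7) and CNN1 (78.9). Membership near these values turns on small differences.

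The rule set no direct limit on the difference between E5 and E4 in injured RPE, but it limited the terms of that difference. On the scale of the rule, the difference in 6hPR RPE equals that in developing RPE plus the E5 injury difference minus the E4 one. In 6hPR + FGF2 RPE the E5 FGF2 step is added and the E4 one taken away. Genes much lower at E5 than at E4 in developing RPE were left out, so the directions called are not independent of the rule. The calls and p-values below are thus descriptions of the 24 genes. In 6hPR + FGF2 RPE limma called 10 of the 24 genes higher and 1 lower at E5 than at E4, and in 6hPR RPE 11 higher and 1 lower (Benjamini-Hochberg adjusted p of 0.05 or less). Of all genes tested, 16.7% were called higher and 12.8% lower in 6hPR + FGF2 RPE, and 11.3% higher and 8.41% lower in 6hPR RPE. Among the 254 other injury genes, 39.0% were called higher and 2.76% lower in 6hPR + FGF2 RPE, and 39.0% and 1.57% in 6hPR RPE. A higher level at E5 was thus not particular to the 24 genes among the injury genes. The median limma difference was 0.39 log2 in 6hPR + FGF2 RPE and 0.62 in 6hPR RPE, beside 0.00 for all genes tested in each. On the scale of the rule the medians of the 24 genes were 0.40 and 0.57, below the 0.69 and 0.76 of all 278 injury genes. Cell type markers also differed between the stages. Of 15 RPE markers, 12 were called higher and 0 lower at E5 than at E4 in 6hPR + FGF2 RPE, and 11 higher and 0 lower in 6hPR RPE, with median differences of 0.95 and 1.15 log2. Of 11 yolk sac or liver markers, 1 was called higher in 6hPR + FGF2 RPE and 8 in 6hPR RPE (medians 2.63 and 4.51). In neither condition was any of them called lower. E5 6hPR replicate 3 alone held the highest value of 9 of the 11. The list names RBP4, which the paper counts among genes of RPE function that were higher in E5 RPE. Whether RPE cells themselves expressed the other markers of this list was not tested, so the calls need not mean a foreign tissue. Of 14 periocular mesenchyme markers, 1 was called higher and 6 lower in 6hPR + FGF2 RPE, and 2 higher and 6 lower in 6hPR RPE. Of 10 erythrocyte markers, 1 was called higher and 0 lower in 6hPR + FGF2 RPE, and 0 higher and 4 lower in 6hPR RPE. At most 3 genes of each of the leukocyte, neural retina, lens and endothelium lists were called in a direction. The part of these cell types in the stage differences of the 24 genes was not tested.

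Of the 24 genes, 11 were called in both conditions and 12 in neither. The stage difference with FGF2 minus that without it equals the E5 FGF2 step minus the E4 one, on which the rule set limits, so nothing is read from the agreement of the conditions. AKR1B10 rose by 2.35 log2 at E5 in 6hPR + FGF2 RPE (limma SE 0.43, adjusted p = 0.0011) and by 2.12 in 6hPR RPE (SE 0.43, adjusted p = 0.0027). PAPLN rose by 1.59 in 6hPR + FGF2 RPE (SE 0.44, limma adjusted p = 0.014) and by 2.08 in 6hPR RPE (SE 0.44, adjusted p = 0.0035). The transporters ABCA1 and SLC22A18 rose by 1.62 and 1.56 in 6hPR + FGF2 RPE (limma adjusted p = 0.0007 and 0.003) and by 1.49 and 1.59 in 6hPR RPE (adjusted p = 0.0015 and 0.0031). The adhesion gene MPZL2 rose by 1.52 in 6hPR + FGF2 RPE (limma adjusted p = 0.0047) and by 1.78 in 6hPR RPE (adjusted p = 0.002). CTTNBP2 had the smallest adjusted p of the 24 in each condition and rose by 1.25 in 6hPR + FGF2 RPE (limma adjusted p = 2.1e-05) and by 1.07 in 6hPR RPE (adjusted p = 8e-05). NXNL1 and ENSGALG00000003590 were called higher in both as well, by 0.86 and 1.31 in 6hPR + FGF2 RPE (limma adjusted p = 0.0065 and 0.012) and by 1.08 and 1.45 in 6hPR RPE (adjusted p = 0.0018 and 0.0083). TSHZ1 and MAN2B2 had 0.78 and 0.39 in 6hPR + FGF2 RPE (limma adjusted p = 0.016 and 0.037) and 0.69 and 0.40 in 6hPR RPE (adjusted p = 0.039 and 0.045). Among 17 alternative runs the call of MAN2B2 was lost in 7 with FGF2 and 8 without it. That of TSHZ1 was lost in 1 and 5, and that of ENSGALG00000003590 in 3 and 0. PAPLN and MPZL2 each lost the call in 1 run with FGF2 and in 0 without it. ENSGALG00000041054 fell, with -0.85 in 6hPR + FGF2 RPE (limma adjusted p = 0.00054) and -0.46 in 6hPR RPE (adjusted p = 0.03, lost in 5 of 17 runs). ENSGALG00000001035 passed in 6hPR RPE (0.90, limma adjusted p = 0.0022, lost in 1 of 17 runs) and not in 6hPR + FGF2 RPE (0.27, adjusted p = 0.28), and for the same reason the difference between these values was not tested.

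STAT3, CISH, CAMKK1, FOS and NR4A1 were not among the genes called. STAT3 differed by 0.23 log2 between E5 and E4 in 6hPR + FGF2 RPE (95% interval -0.11 to 0.58) and by 0.07 in 6hPR RPE (-0.27 to 0.42). The CISH difference was 0.13 (-0.42 to 0.68) in 6hPR + FGF2 RPE and -0.07 (-0.62 to 0.47) in 6hPR RPE. That of CAMKK1 was 0.18 (-0.23 to 0.59) in 6hPR + FGF2 RPE and 0.20 (-0.21 to 0.61) in 6hPR RPE. FOS differed by 0.38 (-0.46 to 1.22) in 6hPR + FGF2 RPE and by 0.56 (-0.27 to 1.40) in 6hPR RPE, with intervals that reach past 1. NR4A1 differed by 0.24 (-0.61 to 1.10) in 6hPR + FGF2 RPE and by 0.15 (-0.71 to 1.00) in 6hPR RPE. NR2F1 was the gene with a symbol whose values were lowest at E5 relative to E4 in both conditions, -0.28 in 6hPR + FGF2 RPE and -0.15 in 6hPR RPE, and neither passed. GAD2, ADAMTS8, CELF3, MST1, ENSGALG00000054797 and ENSGALG00000046825 were the other genes called in neither condition. Some genes gained a call in alternative runs. In 6hPR RPE these were CELF3 in 4 of 17 runs and FOS in 1. In 6hPR + FGF2 RPE they were NR2F1 and ENSGALG00000046825, in 1 of 17 each.

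**Figure D4:**
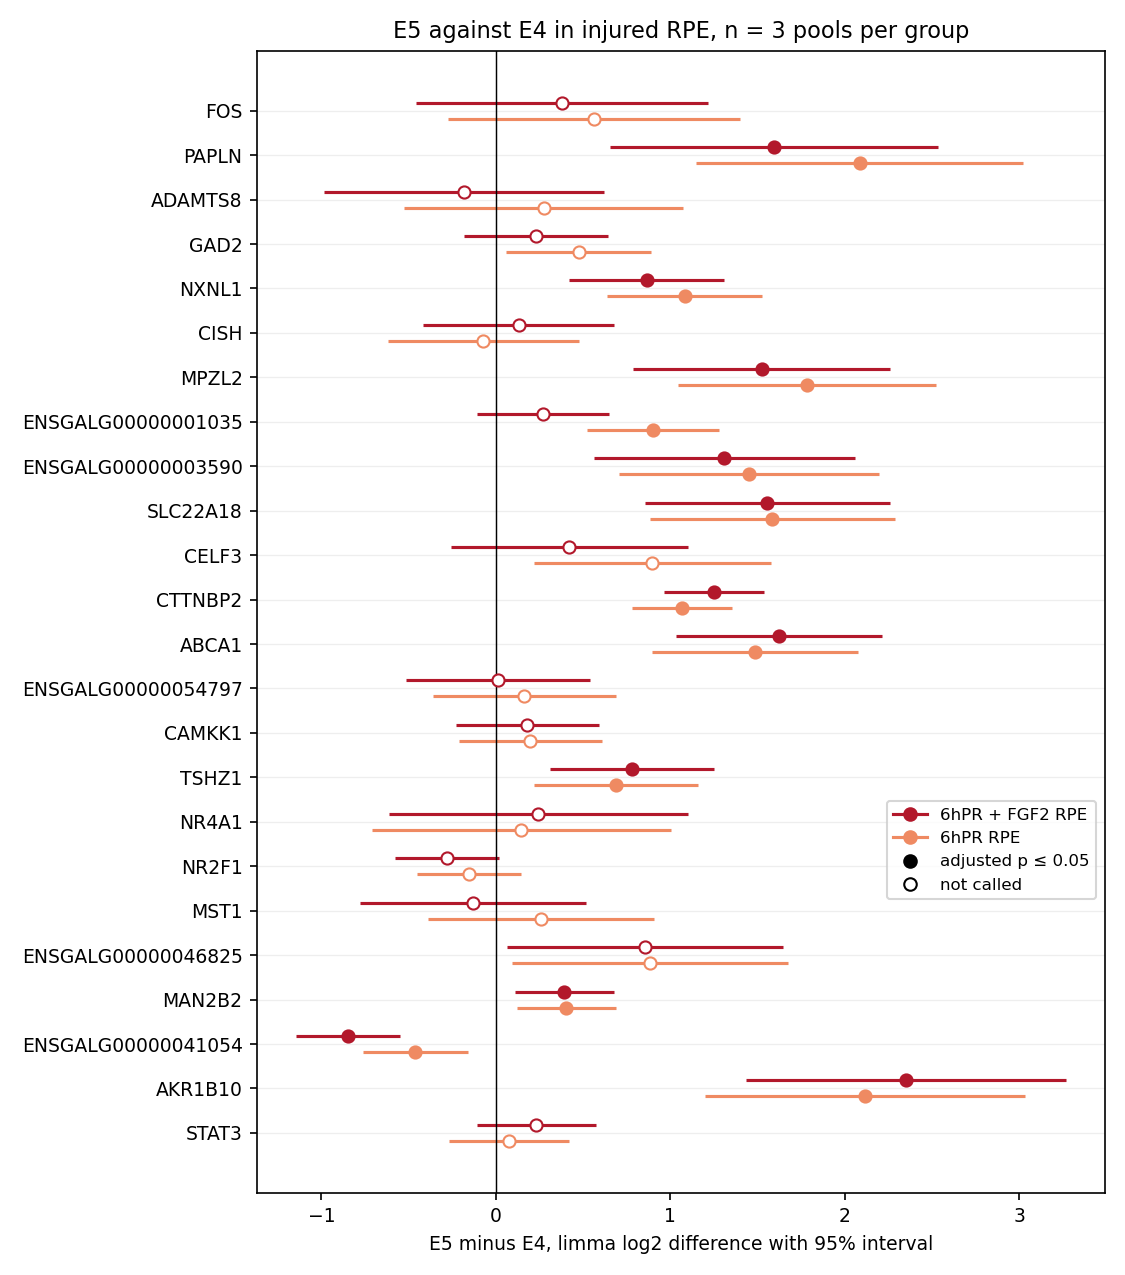
E5 minus E4 differences of the 24 genes in 6hPR + FGF2 and 6hPR RPE on the log2 scale, as limma estimates with 95% intervals from 3 pools per group. Filled points passed an adjusted p of 0.05, 11 in 6hPR + FGF2 and 12 in 6hPR RPE; AKR1B10, PAPLN, SLC22A18, ABCA1 and MPZL2 lie farthest to the right, and ENSGALG00000041054 is the filled point left of 0.

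Set beside developing RPE, the genes that were higher at E5 are described here with no test, because the rule used the developing and 6hPR means. For AKR1B10, SLC22A18, PAPLN and ABCA1 developing RPE itself had a higher mean at E5, by 2.28, 1.57, 1.48 and 1.44 log2, and the E5 injury difference minus the E4 one was -0.16, -0.02, 0.47 and 0.04 in the same order of genes. For AKR1B10, PAPLN and ABCA1 these values rest in part on E5 developing replicate 1, the highest of its group for each. Without that library, a choice made after seeing the data, the mean of developing RPE was higher at E5 by 1.55, 0.81 and 0.92 log2 for AKR1B10, PAPLN and ABCA1, and the injury difference was larger at E5 by 0.57, 1.14 and 0.57. SLC22A18 kept values of 1.61 and -0.06 without it. For MPZL2, ENSGALG00000003590, NXNL1, ENSGALG00000001035 and CTTNBP2 developing RPE differed little between the stages (0.09, 0.25, 0.03, -0.06 and 0.21), while their injury difference was larger at E5 by 1.63, 1.14, 1.02, 0.92 and 0.86. Over the 24 genes the injury difference was larger at E5 in 19 and at E4 in 5, with a median gap of 0.20, and over the 278 injury genes it was larger at E5 in 190, with a median gap of 0.29. NR4A1 had the largest gap the other way (1.09 at E5 and 1.74 at E4), which rests on the E4 6hPR replicate 2 value of 298. Without that library its E4 difference was 1.04.

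Without E4 6hPR replicate 2, 18 genes met the rule and 13 of the 24 were among them. The median FGF2 step of the 24 at E4 was then 0.35 in place of 0.10 and ran up to 1.17, and their median E4 injury difference was 1.10 in place of 1.30. Of the 24 steps at E4, 16 were above 0 with all libraries, 18 without replicate 2, 12 without replicate 1 and 10 without replicate 3, and 23 of the 24 genes met the rule without replicate 1 or without replicate 3. FOS left the rule on its E4 FGF2 step, which was 1.17 without that library and 0.19 with it, and PAPLN likewise at 0.77 in place of 0.18. MST1 (0.82), ENSGALG00000003590 (0.67), CELF3 (0.65) and ENSGALG00000001035 (0.51) also exceeded the FGF2 limit, and STAT3 fell under the injury limit with 0.73, as did MPZL2 (0.62), ENSGALG00000054797 (0.78), ENSGALG00000041054 (0.92) and MAN2B2 (0.94). The stage test moved for FOS as well: without that library limma called it higher in E5 than in E4 6hPR RPE (adjusted p = 0.0016). With that library included its adjusted p was 0.36. In the same run CELF3 was called too, and the call of ENSGALG00000041054 was lost. For these 11 genes, meeting the rule at E4 depended on this pool, and for several of them on other E4 pools too. Without E4 developing replicate 1, 18 of the 24 genes met the rule. STAT3, MPZL2, ENSGALG00000054797, ENSGALG00000041054, MAN2B2 and CTTNBP2 then fell under the E4 injury limit. MST1 also left the rule without E4 6hPR + FGF2 replicate 3, and ENSGALG00000003590 without E4 6hPR + FGF2 replicate 2 or E4 developing replicate 3.

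**Figure D5:**
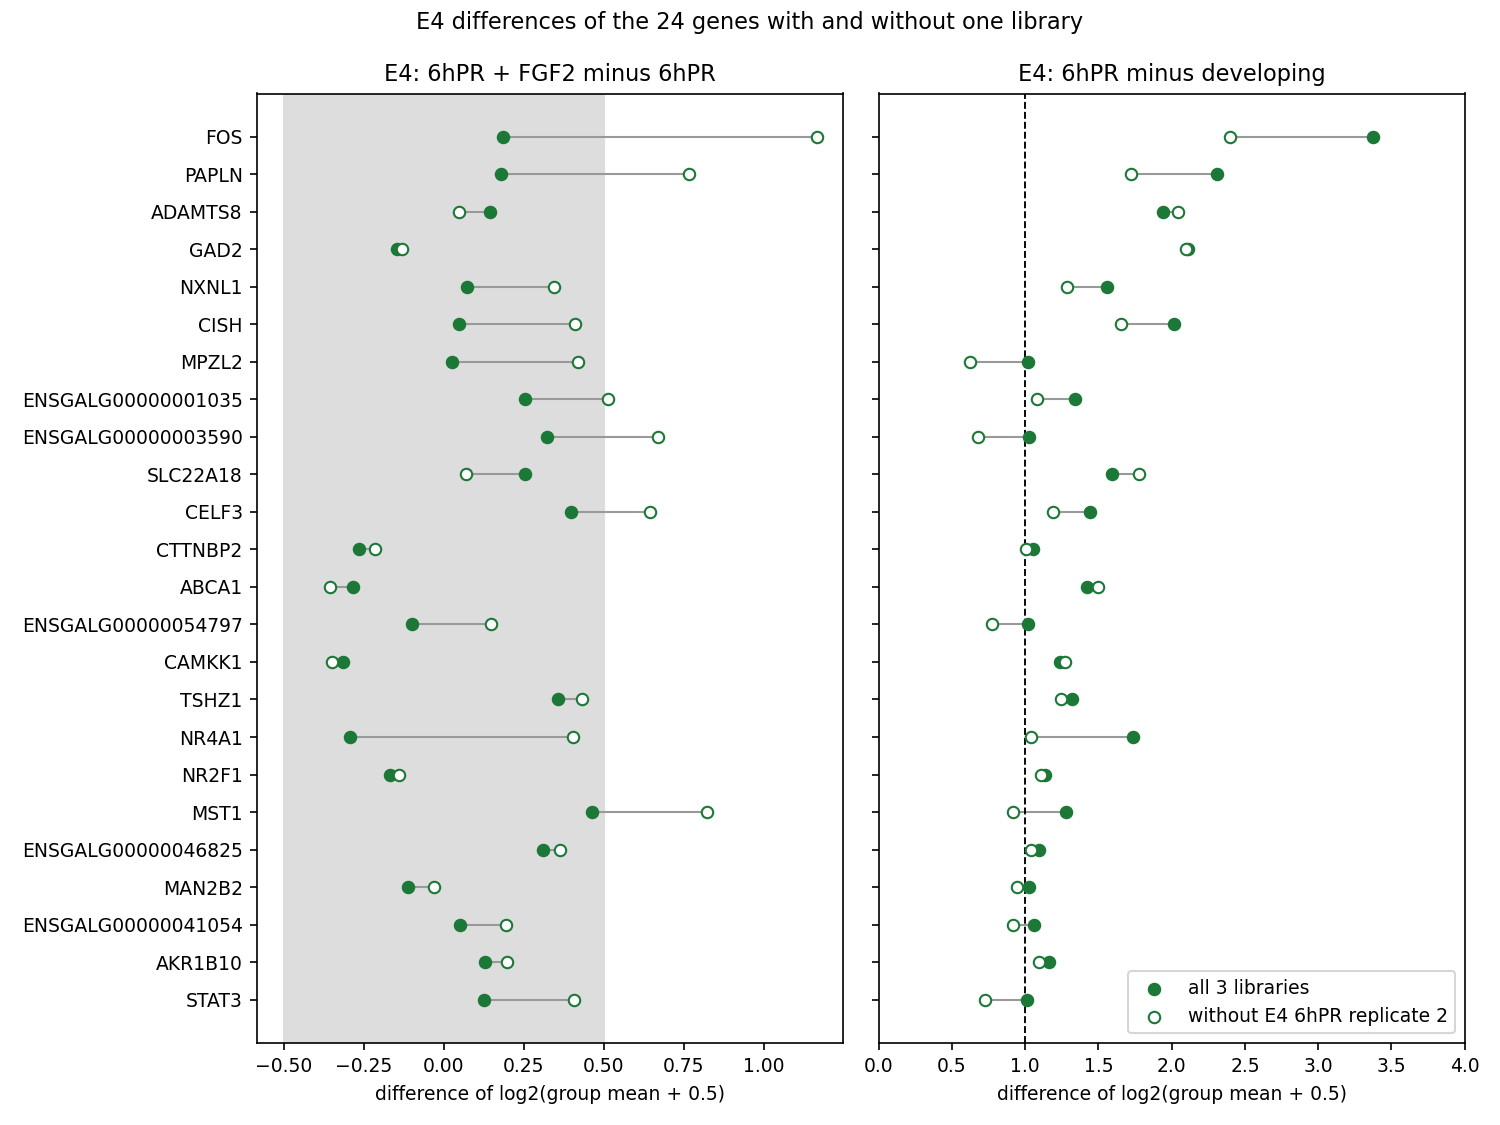
E4 differences of log2(group mean + 0.5) for the 24 genes with all 3 E4 6hPR libraries (filled) and without replicate 2 (open), 6hPR + FGF2 minus 6hPR on the left and 6hPR minus developing RPE on the right. The grey band marks the limit of 0.5 and the dashed line the limit of 1; FOS moves farthest, to 1.17 on the left.

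GAD2, NXNL1, CISH, SLC22A18, ABCA1, CAMKK1 and NR2F1 met the rule whichever of the 18 libraries was left out and under each of the 5 other ways of computing it. These 7 genes span a transmitter enzyme, a photoreceptor trophic factor, a cytokine inhibitor, a pair of membrane transporters, a calcium-dependent kinase and a nuclear receptor. AKR1B10 left the rule without any one of 3 E5 libraries besides 1 E4 developing library, its E5 injury difference being 0.67 without E5 developing replicate 2, and TSHZ1 left it without E5 6hPR replicate 1 (FGF2 step 0.53). The median SD of log2 values within a group was larger for the 24 genes than for all genes with a mean of at least 100 in every group, and the gap was widest in E4 6hPR RPE (0.40 against 0.17) and narrowest in E5 6hPR RPE (0.17 against 0.15).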

How the data were processed

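RNA-seq of chicken RPE was read from 1 table of normalized counts, 18336 genes by 18 libraries, and no column was left out. The deposited values are a normalized count signal: per the study's methods and the submitters' processing notes, the authors used Cutadapt with Trim Galore for trimming, 2-pass STAR alignment to GRCg6a, StringTie for Ensembl gene counts and DESeq2 size factors to scale the libraries. Tool versions are not given in the sources used here. Multiplied back, 100% of values in each library were whole reads (tolerance 1e-06), 50.7 to 73 M per library.

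The rule used group means with a pseudocount of 0.5. Stage comparisons in injured RPE were fitted on log2(normalized count + 0.5) by limma 3.58.1 (R 4.3.3), with a variance trend, 6 group means over 18 libraries and Benjamini-Hochberg adjustment over 18287 genes (sum of 10 or more), calling at 0.05. Errors are SDs of 3 libraries, and fold changes on this scale understate changes of low genes. The fit was also run on simulated counts that held no outlying library, so that run does not show how the fit behaves with such a library. Exact permutation of 3 against 3 libraries cannot give a p under 0.1, so none was used. Alternatives were pseudocounts of 1 and 5, no filter, a mean of 10 or more, TMM scaling, quantile normalization, means of log2 values, only the libraries compared, a replicate block, edgeR 4.0.16 and DESeq2 1.42.0 on recovered reads, and leaving out each library.

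The members, gene lists and marker lists (RPE, neural retina, leukocytes, erythrocytes and others) were chosen with earlier results of these data known. Every member with a symbol met the naming rule (list membership, size of difference, level, or nearness to a limit); members without one were named after their values were seen. All 19 symbols matched RefSeq. Promoter motifs were not examined, and no coordinates or sequences are given. The egg source differs between the methods (SPAFAS, Charles River) and the labels (White Leghorn, Michigan State University).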

Additional observations from a re-analysis of the deposited data

How the results depend on the processing

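The number of genes that met the rule was 24 and ran from 22 to 30 under 5 other ways of computing it, which kept 19 to 23 of the 24, and from 18 to 35 when each library was left out in turn. The lowest count came without E4 6hPR replicate 2 (18 genes, 13 of the 24) and the highest without E4 6hPR replicate 3 (35 genes, 23 of the 24). Of the 24, 17 met the rule under all 5 settings and 7 under all settings and all left-out libraries, and 50 other genes met it in at least 1 such run.

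In 6hPR + FGF2 RPE 11 of the 24 genes were called between E5 and E4, 9 to 11 under other settings and 7 to 11 with a library left out. The count of 7 came without E4 6hPR + FGF2 replicate 2, where PAPLN, ENSGALG00000003590, TSHZ1 and MAN2B2 were lost, and 6 of the 11 calls held in every run. In 6hPR RPE 12 were called, 9 to 13 under other settings and 9 to 13 with a library left out, and 8 of the 12 held in every run. The calls of MAN2B2 were lost most often, in 7 of 17 runs in 6hPR + FGF2 RPE and in 8 of 17 in 6hPR RPE. No direction was reversed. Leaving out E5 developing replicate 2, an alternative chosen after seeing the data, gave 11 and 13 calls.

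With the replicate number as a block limma called 11 genes in 6hPR + FGF2 RPE and 11 in 6hPR RPE, where TSHZ1 was lost (adjusted p = 0.054). Whether the numbers pair samples was examined only between E5 and E4 libraries of a condition, by correlations of deviations from the group means over 12839 genes. Between same-numbered libraries these were -0.08, 0.07 and -0.02 in 6hPR + FGF2 RPE and 0.28, -0.02 and -0.12 in 6hPR RPE. Not every library correlated best with its own number. Same-numbered libraries of different conditions within a stage were not compared, so a pairing there cannot be judged.

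Every value of the 24 genes rested on at least 21 reads, and the part of depth in these results was not tested. With 3 pools a group, 1 pool can move a gene across a limit of the rule. Where a group was left with 2 libraries, the spread was shared with the other groups.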
